A study of Mus musculus with 10 samples.

Results

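Hepcidin and iron handling were followed through 10 genes, Hamp, Hamp2, Bmp6, Hfe, Tfr2, Tfrc, Trf, Slc40a1, Fth1 and Ftl1, each found by its symbol among the 55421 gene identifiers of the count table. The question was how hepatocyte loss of the histone variant H3.3 altered their transcripts in the liver. Poly(A) RNA of whole livers from 10 male mice was sequenced. The H3.3 KO group held 4 C57BL/6 mice with floxed H3f3a and H3f3b, the genes that encode H3.3, and these mice received AAV8 Tbg-Cre, a liver-tropic virus that carries Cre recombinase under the hepatocyte promoter Tbg. Of the controls, 3 were wild-type mice given AAV8 Tbg-Cre (WT Cre) and 3 were floxed mice given AAV8 Tbg-MCS, which carries no Cre (MCS). Injection was at 6 months, and tissue was collected after 3 weeks. Because Tbg is active in hepatocytes, other liver cells of the KO mice should still carry both genes, and the samples hold all liver cells together. For the floxed mice the titles name H3f3a and H3f3b, which the groups follow, although their genotype field says HIRA.

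Hepcidin is the hormone that hepatocytes secrete to limit the entry of iron into blood. It binds ferroportin, the iron exporter of macrophages, enterocytes and hepatocytes, and causes its degradation. Its transcription in hepatocytes is raised by BMP ligands from liver endothelial cells acting through SMAD proteins, by iron-loaded transferrin sensed through HFE and transferrin receptor 2, and by interleukin 6 through STAT3. Inside cells, iron regulatory proteins bind RNA hairpins called iron responsive elements and thereby control translation of the ferritins and ferroportin and the stability of the transferrin receptor mRNA.

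H3f3a averaged 62.1 ± 1.59 CPM in controls and 17.4 ± 1.66 in KO livers, and H3f3b 160 ± 24.1 against 50.5 ± 7.40 (mean ± SD, n = 6 and 4), with no overlap, whereas Hira read 7.16 ± 1.14 and 6.51 ± 0.188. CPM are counts relative to library size, scaled by the trimmed mean of M values (TMM). Libraries held 20862860 to 26096141 counts in controls and 14998426 to 23619487 in KO livers, the lowest being KO 1. All of the 12 hepatocyte markers had counts, and their summed level was 115300 to 161500 CPM in controls and 85600 to 104100 in KO livers. MCS 3 stood apart from the other controls in acute phase genes: Saa1, a serum amyloid of the acute phase response, read 1706 CPM there and 17.4 to 58.3 in the other 5. KO 1 stood apart from the other KO livers in several iron genes, as given below, and results that rest on either library are given without it.

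Of the 10 genes, all were tested and 3 passed in KO against the 6 controls, Trf and Hfe higher and Tfr2 lower (edgeR quasi-likelihood test, Benjamini-Hochberg adjusted p under 0.05). Among all 22449 genes tested, 36.3% passed, 19.7% higher and 16.6% lower, so the share of these genes that passed was not above that of all genes. Trf alone also had an absolute log2 fold change over 1, against 18.7% of all genes. Those 3 genes had no overlap between KO and control livers, as had 24.5% of all genes. The median log2 fold change of the 10 genes was 0.38, and that of all genes tested was -0.003. Hamp itself did not pass. Without KO 1 and MCS 3, 4 genes passed, the fourth being Bmp6, beside 42.8% of all genes tested in that setting.

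**Figure D1:**
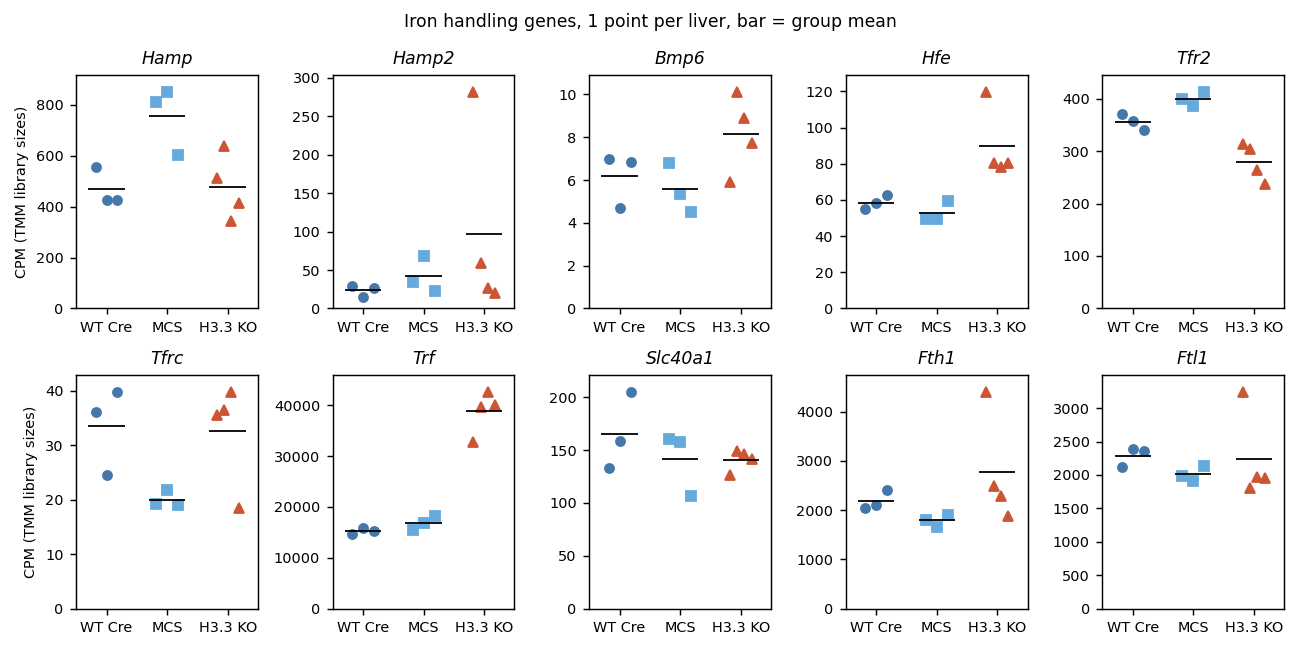
CPM of the 10 iron handling genes, with 1 point per liver and a bar at the mean of each group (WT Cre, n = 3, MCS, n = 3, H3.3 KO, n = 4); each vertical axis starts at 0. Trf and Hfe were higher and Tfr2 lower in each KO liver than in any control. Hamp had its highest group mean in MCS livers, with overlap between MCS and KO livers. KO 1 carried the highest Hamp2 (281.9 CPM), Hfe, Fth1 and Ftl1.

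Hepcidin is encoded in the mouse by a pair of neighbouring genes on chromosome 7 (mm10, minus strand), Hamp at 30942368 to 30944032 and Hamp2 at 30922372 to 30924681. Hamp encodes the active hormone. The promoters are shown because Hamp2 was high without Hamp in KO 1. RefSeq start sites (GRCm38.p6, the mm10 assembly) were found for 8 of the 10 genes. The stretches below lie at chr7:30944060-30944179 for Hamp and chr7:30924209-30924328 for Hamp2, both on the minus strand. The capitals mark GGCGCC, the core of the known BMP responsive element of Hamp, with the aligned bases of Hamp2, and TTCTTGGAA, its known STAT3 site.
Hamp: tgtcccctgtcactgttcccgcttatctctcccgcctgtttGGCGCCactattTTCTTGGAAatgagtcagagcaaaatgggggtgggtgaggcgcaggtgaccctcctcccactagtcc
Hamp2: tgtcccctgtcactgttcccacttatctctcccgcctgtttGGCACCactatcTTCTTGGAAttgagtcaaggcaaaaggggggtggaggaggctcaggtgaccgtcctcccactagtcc
The stretches differed at 11 of 120 positions. In the capitals the difference was G45A, counted from 1 at the 5′ end, with the base of Hamp first. On either strand, GGCGCC was found in 11.9% of 32851 promoters of the same length, GGCACC in 15.5% and TTCTTGGAA in 0.417%, and GGCGCC and TTCTTGGAA do not overlap here. These matches are descriptions of letters.

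Hamp did not differ between KO livers and the 6 controls beyond the spread. The KO livers read 512.5, 640.4, 344.3 and 414.1 CPM, the WT Cre livers 554.1, 426.7 and 425 CPM, and the MCS livers 811, 851.2 and 603.6 CPM. The WT Cre range lay inside that of the KO livers, whereas the MCS livers were higher than every WT Cre liver and, but for MCS 3, than every KO liver. Its log2 fold change was -0.36 (SE 0.23, 95% interval -0.86 to 0.15, adjusted p = 0.261) against all controls and 0.03 (-0.41 to 0.47, adjusted p = 0.937) against WT Cre. Against MCS it was -0.66 (SE 0.20, adjusted p = 0.0253). That call was lost in 6 of 19 alternative settings, among them those without MCS 1, MCS 2, KO 3 or KO 4 (adjusted p = 0.0875, 0.105, 0.0701 and 0.0613), and adjusted p over all 19 ranged from 0.0103 to 0.120. WT Cre livers, which carry intact H3.3 genes, differed from MCS by -0.69 (adjusted p = 0.219), and this contrast is also the test of the difference between the preceding pair. A whole-liver level cannot tell fewer cells of a type from less RNA per cell.

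Hamp2 was high in KO 1. It read 281.9, 59.6, 26.8 and 19.8 CPM in KO 1 to 4, 29.6, 14.7 and 26.2 in WT Cre, and 35.1, 68.8 and 22.7 in MCS livers. Only KO 1 lay above all controls, and KO 2, 3 and 4 lay within their range. A log2 fold change of 1.56 (SE 0.77, adjusted p = 0.152) did not pass, and without KO 1 it was 0.11 (adjusted p = 0.896), with adjusted p from 0.0841 to 0.981 over all 20 alternatives.

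Hamp2 made up 4.91% ± 1.56 of the counts of both hepcidin genes in controls (SD, n = 6) and 35.5%, 8.51%, 7.22% and 4.56% in KO 1 to 4. The difference in means was 9.04 percentage points (two-sided exact permutation test, p = 0.0381, smallest possible 0.00476), and 1.86 points without KO 1 (exact p = 0.19). Leaving out WT Cre 2, MCS 1, MCS 3, KO 2 or KO 3 also took the exact p over the threshold, to 0.0595 to 0.0833. Of the 50-base stretches of the Hamp reference transcript, 16.6% occur unchanged in Hamp2, so reads there can be assigned to either gene. Gm44662, on the other strand, overlaps both genes and had at most 8 counts in a library.

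**Figure D2:**
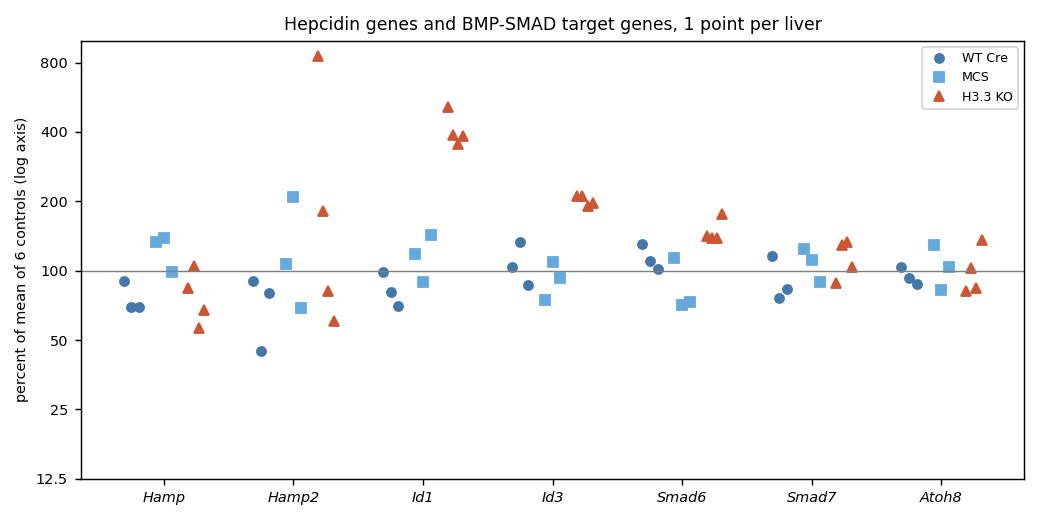
Levels of the hepcidin genes and of BMP-SMAD target genes in each liver, as percent of the mean of the 6 controls on a log axis, with circles for WT Cre, squares for MCS and triangles for H3.3 KO. Id1, Id3 and Smad6 lay above all controls in the 4 KO livers, whereas Hamp, Smad7 and Atoh8 overlapped with them.

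Upstream of hepcidin, the sensor gene Hfe rose and Tfr2 fell, and the ligand gene did not pass. Bmp6, the main BMP ligand that relays liver iron to hepatocytes, read 5.93, 10.1, 8.89 and 7.73 CPM in KO livers, 7.00, 4.68 and 6.83 in WT Cre and 6.80, 5.36 and 4.53 in MCS livers. KO 2 to 4 lay above all controls and KO 1 among them. Its log2 fold change of 0.48 (SE 0.18, adjusted p = 0.0504) did not pass, and it passed in 10 of 20 alternatives (adjusted p from 0.0117 to 0.175), among them those without KO 1, WT Cre 1 or WT Cre 3 (0.0117, 0.0444 and 0.045). Bmp6 is produced by endothelial cells, and the endothelial markers rose in 3 of 11 and fell in none, beside 19.7% of all genes higher and 16.6% lower. Their summed level was 322.2 to 402.5 CPM in controls and 347.7 to 588.3 in KO livers. Without KO 1, 8 of 11 rose, and 40.9% of all genes passed. The part of this in the Bmp6 values was not tested.

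Hfe encodes a membrane protein that hands the signal of iron-loaded transferrin to the hepcidin pathway. It read 119.8, 80.6, 78.3 and 80.7 CPM in KO livers, 54.8, 58.3 and 62.6 in WT Cre and 49.5, 49.6 and 59.2 in MCS livers. Every KO liver lay above every control, and KO 1 lay far above the other 3. Hfe rose by 0.69 on the log2 scale (SE 0.13, 95% interval 0.41 to 0.97, adjusted p = 0.0011), and by 0.52 without KO 1 (adjusted p = 0.000618) within a range of 2.25e-05 to 0.00365 over the 20 alternatives. Against WT Cre it was 0.62 (adjusted p = 0.0103; 0.0504 without WT Cre 1) and against MCS 0.77 (adjusted p = 0.00265).

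Tfr2, the hepatocyte receptor that senses iron-loaded transferrin, went the other way. It read 313.5, 303.1, 264.2 and 237.9 CPM in KO livers, 371, 357.4 and 340.2 in WT Cre and 400.1, 386 and 412.8 in MCS livers. The 3 groups did not overlap, KO being lowest and MCS highest. Tfr2 stood at a log2 fold change of -0.43 (SE 0.11, 95% interval -0.67 to -0.20, adjusted p = 0.00782), and this call was kept in all 20 alternatives, with values of -0.49 to -0.25 and adjusted p from 0.00057 to 0.049. Tfr2 fell against MCS by 0.51 on the log2 scale (adjusted p = 0.0056), a call lost under library size scaling (-0.27, adjusted p = 0.0653). Against WT Cre it was -0.35 (adjusted p = 0.0426), a call lost in 13 of 19 alternatives, among them each of those without 1 of the WT Cre livers (adjusted p = 0.131, 0.109 and 0.0845), MCS 1 or 2 (0.0609 and 0.0611), or KO 2, 3 or 4 (0.0548, 0.109 and 0.0858). Tfr2 is expressed by hepatocytes, of whose 12 markers 8 fell and none rose, with a median log2 fold change of -0.67. The part of this in the Tfr2 values was not tested.

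Trf encodes transferrin, the iron carrier of blood plasma that hepatocytes secrete, and it showed the largest change with a passed test among the 10 genes. It read 32730, 39680, 42570 and 40130 CPM in KO livers, 14760, 15910 and 15350 in WT Cre, and 15560, 16920 and 18310 in MCS livers. The lowest KO liver lay far above the highest control. Mean levels were 16140 ± 1282 CPM in controls and 38780 ± 4225 in KO livers (SD, n = 6 and 4), a ratio of 2.40, and the log2 fold change was 1.27 (SE 0.13, 95% interval 0.99 to 1.54, adjusted p = 1.38e-05). Trf rose from 1.53% to 4.19% of all counts and from the fifth to the second most counted gene. It passed against WT Cre (1.34) and against MCS (1.20) as well, and in all alternatives. Hepatocyte markers fell in the same livers, Alb among them by 0.49 on the log2 scale. A read-through model, Gm20425, contains 79.8% of the 50-base stretches of the Trf transcript, and its counts are not used here. Reads there can be lost or split, so the level, share and rank of Trf are uncertain to an unknown extent.

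Tfrc encodes transferrin receptor 1, which takes iron-loaded transferrin into cells. It read 35.6, 36.4, 39.7 and 18.5 CPM in KO livers, 36.1, 24.6 and 39.7 in WT Cre and 19.1, 21.7 and 19.1 in MCS livers. KO 1 to 3 lay in the upper range of WT Cre, and KO 4 lay below all controls. Its log2 fold change was 0.28 (SE 0.27, adjusted p = 0.455) against all controls and -0.04 (95% interval -0.57 to 0.49) against WT Cre. Against MCS it was 0.70 (adjusted p = 0.0487), a call lost in 10 of 19 alternatives (adjusted p from 0.00112 to 0.224), including those without WT Cre 1, MCS 1, 2 or 3, or KO 1, 2 or 3 (0.064 to 0.132). WT Cre exceeded MCS by 0.75 (adjusted p = 0.294), as for Hamp in the opposite direction.

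The iron responsive elements of the exporter, the ferritins and the receptor are shown because they tie these genes to the same iron regulatory proteins. The letters searched were C, then any 5 bases, then CAGTG, the bulge and loop of the known element, on the sense strand of 1 reference transcript per gene (GENCODE M21, mm10), and each site below has 30 bases with those letters in capitals.
Fth1, 5′ UTR, chr19:9982731-9982760, plus strand: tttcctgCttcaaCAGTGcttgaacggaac
Ftl1, 5′ UTR, chr7:45459779-45459808, minus strand: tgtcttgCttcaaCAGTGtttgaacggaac
Slc40a1, 5′ UTR, chr1:45925465-45925494, minus strand: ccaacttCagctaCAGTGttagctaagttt
Tfrc, 3′ UTR, first match, chr16:32631218-32631247, plus strand: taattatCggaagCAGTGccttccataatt
Tfrc, 3′ UTR, last match, chr16:32631709-32631738, plus strand: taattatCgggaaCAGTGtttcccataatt
Tfrc held 5 matches in its 3′ UTR, and Fth1 held 1 more in its 3′ UTR. Trf held 2 matches, and Tfr2 and Bmp6 1 each, all in coding sequence. The letters alone occur in 55.6% of 58797 protein-coding transcripts, so a match does not by itself mark an element.

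Slc40a1, which encodes ferroportin, showed no difference beyond the spread. It read 126.9, 148.7, 146.1 and 141.2 CPM in KO livers, 133.1, 158.9 and 204.8 in WT Cre and 160.2, 158.1 and 106.6 in MCS livers. The KO range lay inside that of the controls. Its log2 fold change was -0.13 (SE 0.15, 95% interval -0.45 to 0.20, adjusted p = 0.552), and its sign turned under library size scaling and in the FPKM table.

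The ferritin subunits form the shell that stores iron, the heavy chain Fth1 with ferroxidase activity and the light chain Ftl1 without. Fth1 read 4395, 2500, 2286 and 1881 CPM in KO livers, 2039, 2098 and 2409 in WT Cre and 1805, 1668 and 1901 in MCS livers. KO 1 and KO 2 lay above all controls, and KO 3 and KO 4 lay among them. A log2 fold change of 0.48 (SE 0.20, adjusted p = 0.0841) did not pass, and without KO 4 it was 0.63 (adjusted p = 0.0328) and without KO 1 0.16 (adjusted p = 0.361), within a range of 0.0241 to 0.426 over 20 alternatives. Ftl1 read 3238, 1801, 1973 and 1953 CPM in KO livers, 2116, 2392 and 2362 in WT Cre and 1991, 1905 and 2130 in MCS livers. KO 1 was the highest of all 10 libraries, and the other KO livers lay below every control other than MCS 2. The log2 fold change was 0.06 (SE 0.16, 95% interval -0.29 to 0.41, adjusted p = 0.807), and it was -0.17 without KO 1.

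The balance between the chains differed. Ftl1 made up 52.1% ± 1.52 of the counts of both chains in controls, with a range of 49.5% to 53.3%, and 42.4%, 41.9%, 46.3% and 51.0% in KO 1 to 4. KO 1 to 3 lay below all controls and KO 4 among them. The difference was -6.66 percentage points (two-sided exact permutation test, p = 0.0143), and leaving out single livers gave -8.51 to -5.49 points with the exact p at most 0.0357. Of the 50-base stretches of Ftl1, 78.9% also occur in other genes, mainly Ftl1-ps1, Gm15590 and Ftl2-ps. Ftl1-ps1 held 678 to 1208 counts per library against at least 38115 for Ftl1, and the counts of Gm15590 were not read. Counts given to such copies do not bound the reads lost or split there, so the level and share of Ftl1 are uncertain to an unknown extent.

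Against WT Cre alone 3 of the 10 genes passed (Trf, Hfe and Tfr2) beside 28.4% of all genes, and against MCS alone 5 passed (these with Hamp and Tfrc) beside 32% of all genes. Both share the KO livers and 1 fit. Between WT Cre and MCS, edgeR called 0 of the 10, beside 0.927% of all genes. At unadjusted p under 0.05 there were 2, Hamp and Tfrc, and DESeq2 and limma voom called 0. Against MCS alone DESeq2 called 7, with Bmp6 and Fth1 added (adjusted p = 0.0423 and 0.0349), and limma voom 4.

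**Figure D3:**
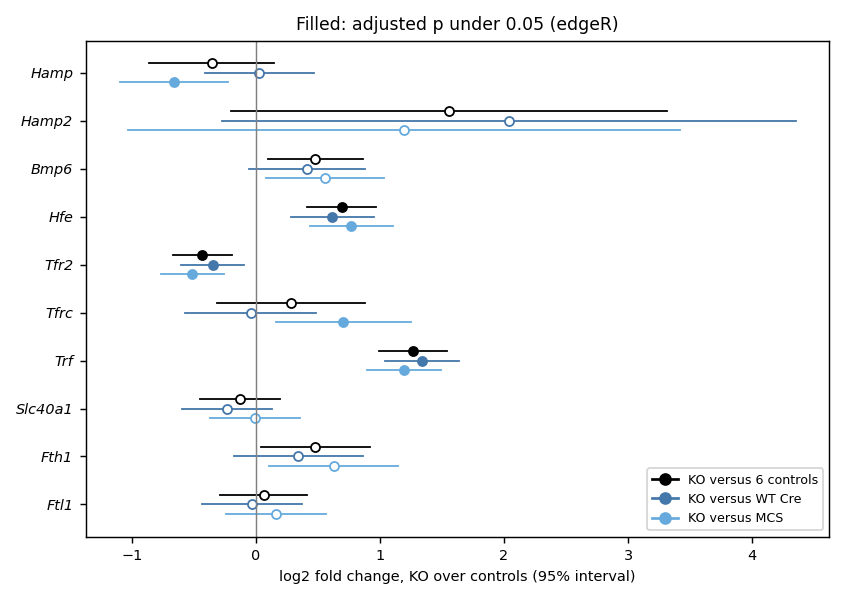
Log2 fold changes of the 10 genes in H3.3 KO livers against all 6 controls, against WT Cre and against MCS, with 95% intervals and filled points where the adjusted p was under 0.05. Trf, Hfe and Tfr2 were filled in all 3 contrasts, and Hamp and Tfrc against MCS alone.

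Levels between genes were compared per length, as the FPKM that the authors deposited. In controls Trf came first at 8640 ± 460, followed by Ftl1 at 2945 ± 515, Fth1 at 1981 ± 387 and Hamp at 1779 ± 441 FPKM (SD, n = 6). Fth1 and Hamp did not differ beyond their spread in FPKM. Hamp2 at 115 ± 54.7 and Tfr2 at 108 ± 3.33 FPKM did not differ beyond theirs, and Slc40a1 (36.7 ± 10.0), Hfe (20.1 ± 3.04), Tfrc (5.71 ± 2.23) and Bmp6 (1.32 ± 0.282) followed. Counts per merged exon length gave the same order in controls except that Hamp stood above Fth1 and Tfr2 above Hamp2. By that measure Hamp was at 1493 ± 449 and Fth1 at 572.7 ± 74.7 CPM per kb. In KO livers Hfe was at 35.9 ± 6.17 and Slc40a1 at 37.2 ± 3.70 FPKM, which did not differ beyond their spread in FPKM. By counts per merged exon length Hfe stood above Slc40a1 in KO livers, with means of 25.15 and 15.64 CPM per kb. That gap was larger than the SD of either gene, so the comparison depended on the measure of length. The difference between these genes was not tested.

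After removal of the 3 group means, the genes whose log2 CPM followed Hamp most closely over the 10 livers were Cpsf4l (r = 0.92), Terf2 (0.904), Smarcc2 (0.897) and Rtel1 (0.894), among 13209 genes. Hamp2 reached 0.591, Tfr2 0.537 and Trf -0.553. These are descriptions over 10 livers that share libraries and depth.

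The other genes of the pathway were read from 7 lists of 101 genes, of which 99 were tested. Of these 16 rose and 24 fell, together 40.4%, beside 36.3% of all genes, and their median log2 fold change was -0.05 beside -0.003 for all genes. Of all genes 19.7% rose and 16.6% fell, the shares to set beside each list below. Without KO 1 and MCS 3, 57 passed in place of 40, beside 42.8% of all genes in place of 36.3%.

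Hepcidin control genes rose in 7 and fell in 1 of 24, with a median of 0.22. Together they passed no more often than all genes (36.3%). Without MCS 3, 9 rose and 1 fell, beside 36.4% of all genes. Without KO 1 and MCS 3, 11 rose and 1 fell, beside 42.8%, so this comparison turned on these libraries. Id1, a direct transcriptional target of BMP signalling, read 22.6, 17.2, 15.6 and 16.9 CPM in KO livers and 3.10 to 6.32 in controls (log2 fold change 2.04, SE 0.18, adjusted p = 6.54e-06). Id3, of the same family, read 68.2 to 75.7 CPM against 26.8 to 47.5 (1.02, adjusted p = 9.5e-05), and Smad6, an inhibitory SMAD induced by the pathway, 9.48 to 12.0 against 4.87 to 8.92 (0.57, adjusted p = 0.0199). All 3 separated the groups while Hamp did not. Smad7 (0.19, adjusted p = 0.408) and Atoh8 (0.02, adjusted p = 0.947), further targets of BMP signalling, did not pass. Furin, the protease that cleaves prohepcidin and hemojuvelin, read 397.3, 573.8, 754.8 and 735.6 CPM against 227.7 to 289.8 (1.20, adjusted p = 0.000103). The BMP receptor Acvr2a fell by 0.58 (13.0 to 15.2 CPM against 19.8 to 23.7). Another BMP receptor, Bmpr1a, rose by 0.33 (33.8 to 36.7 CPM against 25.8 to 30.6, adjusted p = 0.00741), and so did the hemojuvelin-binding receptor Neo1 by 0.48 (adjusted p = 0.00221). Tmprss6, the protease that lowers hepcidin, was at -0.07 (adjusted p = 0.622). Gdf15, a stress cytokine, read 16.5 to 23.4 CPM in KO, 13.3 to 14.3 in WT Cre and 4.02 to 5.54 in MCS livers (1.10, adjusted p = 0.047), and the call was lost without any 1 of the MCS or KO livers (0.0535 to 0.108). Id1 and Id3 are also expressed by endothelial cells, whose marker sums are given above, and their part in these values was not tested.

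Acute phase and STAT3 target genes rose in 2 and fell in 6 of 16 (median -0.60), and this list turned on MCS 3. Without it 8 rose and 6 fell, with a median of 0.49, while 36.4% of all genes passed. The genes that fell included the fibrinogen chains Fga, Fgb (-1.73) and Fgg (-1.66), of which Fga read 1293 to 1991 CPM in KO livers and 3010 to 10030 in controls (-1.70, adjusted p = 0.00234), and the pentraxins Apcs (-1.29) and Crp (-1.08, adjusted p = 0.000181). Saa3, a serum amyloid of macrophages among other cells, read 24.4, 169.5, 109.9 and 84.3 CPM against 3.13 to 9.11 (4.08, adjusted p = 0.00039). Il1rn, an interleukin 1 antagonist, was at 2.86 (adjusted p = 0.00551). Saa1 read 74.3 to 171.6 CPM in KO livers, above 5 controls and below MCS 3. Hamp in MCS 3 was the lowest of the MCS livers.

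**Figure D4:**
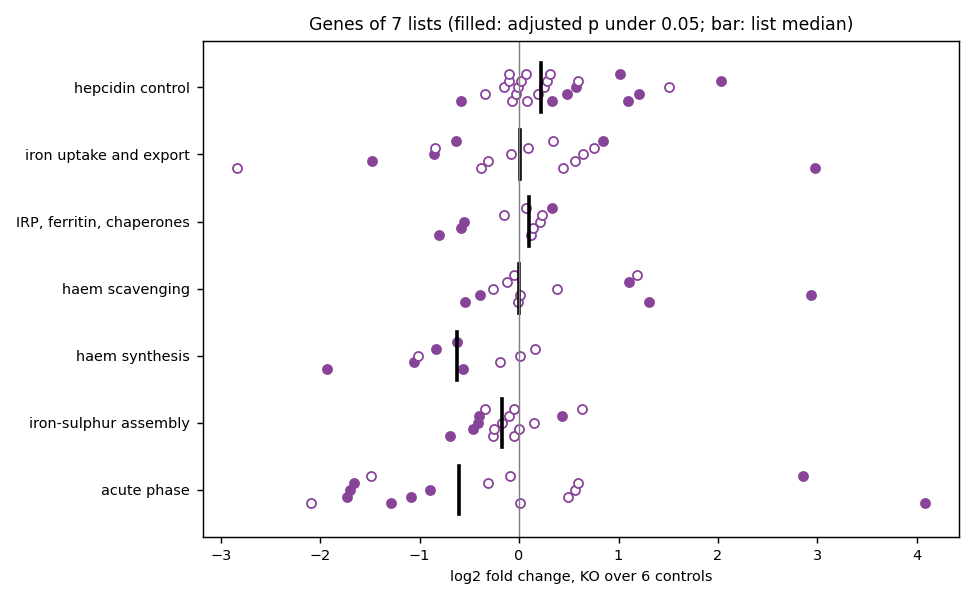
Log2 fold changes of the tested genes of 7 lists in H3.3 KO livers over the 6 controls, 1 point per gene, filled where the adjusted p was under 0.05, with a bar at the median of each list. The haem synthesis list lay to the left, with a median of -0.63 and 5 of 9 genes lower, and without MCS 3 the acute phase median turned from -0.60 to 0.49.

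Haem synthesis genes, whose pathway uses iron for cytochromes and other haem proteins, fell in 5 of 9 and rose in none (median -0.63), and in 6 of 9 without KO 1. Alas1, the rate-limiting first enzyme in liver, read 100.7, 132.1, 129.3 and 177.8 CPM in KO livers, 312, 439 and 441.7 in WT Cre and 453.7, 986 and 466.4 in MCS livers (log2 fold change -1.94, SE 0.31, adjusted p = 0.000643). The groups did not overlap. Cpox (-0.84), Urod (-0.63) and Uros (-0.56), later enzymes of the pathway, passed too, and Fech, which inserts the iron, was at -0.19 (adjusted p = 0.141). Alas2, the erythroid isoform, read 162.4 CPM in KO 1, 22.0 to 52.8 in the other KO livers and 92.7 to 211.5 in controls. Of 9 erythroid markers 1 fell (Klf1, -1.96) and none rose (2 fell without KO 1), beside 16.6% of all genes lower. The sums of these markers were 127.6 to 328.5 CPM in controls and 54.0 to 221.9 in KO livers. Their part in the haem values was not tested. Hepatocyte markers, given above, fell in the same livers.

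**Figure D5:**
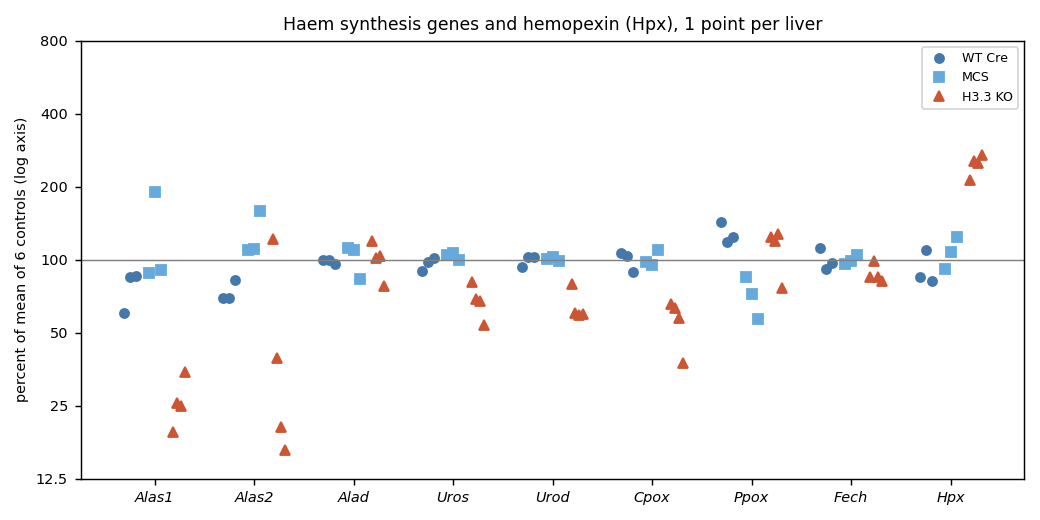
Haem synthesis genes (8 of the 9) and hemopexin in each liver as percent of the mean of the 6 controls, on a log axis, with symbols as circles for WT Cre, squares for MCS and triangles for H3.3 KO. Alas1, Uros, Urod and Cpox lay below all controls in each KO liver and Hpx above, while Alas2, Alad, Ppox and Fech overlapped.

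Haem and haemoglobin scavenging genes rose in 3 and fell in 2 of 12 (median -0.003), beside 36.3% of all genes passing. Without KO 1, 5 rose and 3 fell, beside 40.9%. Hpx encodes hemopexin, the plasma carrier of free haem, and read 6815, 8134, 7995 and 8642 CPM in KO livers and 2608 to 3954 in controls (log2 fold change 1.31, SE 0.14, adjusted p = 2.5e-05). Haptoglobin, Hp, the plasma carrier of haemoglobin, read 1662 to 3370 CPM against 1794 to 4263 and did not pass (-0.01, adjusted p = 0.976). Flvcr2, a membrane transporter of this list, read 15.5 to 21.9 CPM against 1.79 to 3.69 (2.94, adjusted p = 5e-07). Hmox1, the inducible haem oxygenase, read 24.6, 53.2, 46.9 and 49.6 CPM, against 13.8 to 17.7 in 5 controls and 42.4 in MCS 3 (1.10, adjusted p = 0.031). That call was lost without any of the WT Cre livers, MCS 1 or 2, or KO 2, 3 or 4 (0.0547 to 0.0856), and without KO 1 and MCS 3 the value was 1.64. Slc46a1, a haem and folate transporter, fell by 0.54. Hmox2, the constitutive oxygenase, read 28.9 to 32.4 CPM in KO, 32.7 to 35.1 in WT Cre and 46.3 to 49.7 in MCS livers. Its pooled value was -0.40, and KO lay close to WT Cre and far from MCS. The call was lost without any of the MCS livers or KO 2, 3 or 4 (0.0628 to 0.0756).

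Iron uptake and export genes other than the 10 rose in 2 and fell in 3 of 16 (median 0.005), a share not above the 36.3% of all genes. Without KO 1, and likewise without MCS 3, 5 rose and 3 fell, beside 40.9% and 36.4% of all genes. Slc11a1, the phagosomal metal transporter of macrophages, read 27.8, 61.2, 56.3 and 63.5 CPM in KO livers and 4.89 to 12.6 in controls (2.97, adjusted p = 6.07e-05). Kupffer cell markers rose in 12 of 12, with sums of 258.2 to 484 CPM in controls and 600.1 to 1309 in KO livers, and monocyte-derived macrophage markers in 7 of 7 (29.8 to 65.4 and 82.1 to 171.1 CPM), with Gpnmb alone of either list at 0 in a library, MCS 2. The part of these cells in the Slc11a1, Hmox1 and Slc40a1 values was not tested. Heph, a ferroxidase, was at 0.85 (adjusted p = 0.0199, or 0.0619 without KO 3). The metalloreductases Steap2 (-1.48) and Steap3 (-0.63) and the metal importer Slc39a8 (-0.86) were lower. The call of Steap3 was lost under library size scaling (-0.47, adjusted p = 0.0813) and in the FPKM settings (-0.39 and -0.46, adjusted p = 0.115 and 0.116). Cp, the plasma ferroxidase ceruloplasmin, read 1350 to 1737 CPM against 1050 to 1561 and did not pass (0.34, adjusted p = 0.054).

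Among iron regulatory proteins and iron chaperones 1 of 10 rose and 3 fell, near the 36.3% share of all genes that passed. Ireb2, iron regulatory protein 2, read 43.0 to 56.4 CPM in KO livers and 68.8 to 94.0 in controls (-0.58, adjusted p = 0.0013). Aco1, iron regulatory protein 1, did not pass (0.14, adjusted p = 0.34). Pcbp1, which delivers iron to ferritin, was at 0.33 (adjusted p = 0.01), and Ncoa4, the receptor for ferritin breakdown, at 0.12 (adjusted p = 0.43). The genes of the iron-sulphur proteins Cisd1 (-0.80) and Cisd2 (-0.56) fell. Of 15 iron-sulphur assembly genes, which passed no more often than all genes, Glrx5 rose (0.43) and 4 fell, Bola3, Iba57 and Iscu among them (median -0.17). The calls of these 3 were lost when single livers were left out (Bola3 0.051 to 0.137, Iba57 0.0509 to 0.157, Iscu 0.054 to 0.141). Leaving out other livers lowered the adjusted p, at the least to 0.000342 for Bola3, 0.00295 for Iba57 and 0.000102 for Iscu. Without KO 1, 1 of the 15 assembly genes rose and 6 fell, beside 40.9% of all genes, so the share that passed turned on KO 1.

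Markers of the remaining cell types were read too. Stellate cell markers rose in 9 of 11, proliferation genes in 11 of 12 and B and plasma cell markers in 5 of 7, beside 19.7% of all genes. Cholangiocyte markers rose in 1 of 5, which was near that share. None of these markers passed as lower. In sums, stellate markers were at 355.3 to 448.9 CPM in controls and 643.4 to 916.2 in KO livers, proliferation genes at 47.4 to 56.7 and 77.2 to 103.5, B and plasma cell markers at 34.6 to 67.2 and 142 to 489.7, and cholangiocyte markers at 40.6 to 61.8 and 53.6 to 73.7. Leading log2 fold changes were 3.23 for Marco, 1.87 for Cd68, 1.85 for Adgre1 and 1.74 for Cd5l (Kupffer), 4.52 for Gpnmb, 2.73 for Ly6c2, 2.67 for Trem2 and 2.66 for Ccr2 (monocyte-derived), 0.77 for Cdh5 and 0.61 for Tek (endothelial). Those of stellate cells were 3.13 for Col1a1, 2.71 for Col3a1 and 1.53 for Pdgfrb, and those of plasma cells 5.50 for Igkc, 5.13 for Jchain and 3.46 for Mzb1. KO 1 lay within the control range for Igkc (3.91 CPM), Jchain (0.717), Mzb1 (0.0652) and Ly6c2 (0.521), so these rises rest on KO 2 to 4, and limma voom did not call Jchain (adjusted p = 0.0946) or Mzb1 (0.0764). The hepatocyte genes Slc10a1 (-1.88), Cyp2e1 (-1.54) and Ttr (-0.96) fell, Sox9 (1.32) rose among cholangiocyte markers, and Bub1 (2.53), Mki67 (2.24) and Top2a (2.17) rose among proliferation genes. Of the list genes found in the counts, tested or not, none was at 0 in all livers.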

How the data were processed

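Total RNA of 10 mouse livers was sequenced after poly(A) selection. The authors aligned the reads with STAR to mm10. The study's methods name HOMER for counting whereas the submitters' processing notes list HTSeq and Cufflinks, and strand use is not given in the sources used here. The authors deposited whole-number read counts per gene, without normalization, and an FPKM table scaled by transcript length and depth. Control columns were matched to WT Cre and MCS by the number in the library names, since the column names do not give the kind of control. The pooled comparison with 6 controls is unaffected by this match.

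Counts were analysed with edgeR 4.0.16 in R 4.3.3, with genes of at least 10 counts in total, TMM scaling, the robust quasi-likelihood F test and Benjamini-Hochberg adjustment over 22449 genes. KO against all controls was a fit of 2 groups. The contrasts with each kind of control came from a fit of 3 groups with a shared dispersion. Shares were compared by two-sided exact permutation over 210 splits. DESeq2 1.42.0, limma voom 3.58.1, FPKM with pseudocounts of 1 and 0.1, other scalings and filters, a replicate block and leaving out each liver were alternatives, and leaving out KO 1 and MCS 3 together was added after seeing the data. The edgeR tests and the limma fit used for FPKM were checked on simulated counts that had the same dispersion for every gene and no library set apart. The permutation, DESeq2 and voom tests were not checked in this way. The 10 genes and the lists were chosen with earlier results of these data known. Named list genes were those with the largest passed changes, up to 4 per list and direction, and further genes (Saa1, Alb, Smad6, Crp, Uros, Smad7, Atoh8, Tmprss6, Bmpr1a, Neo1, Hp, Cp, Fech, Aco1, Ncoa4, Alas2) were named or kept after their values were seen. Some genes that this rule would name are not reported here. P-values set differences between groups against the spread between livers, and do not measure that spread. The 10 libraries differed from their replicates by more than sampling noise.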

Additional observations from a re-analysis of the deposited data

Results flagged for a closer look

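Among 46 groups of values tested for a library that stands apart, 8 held one, where chance gives about 1 in 20 for independent groups. These groups share libraries and counts, so the numbers cannot be compared as a test. KO 1 stood above the other KO livers in Hamp2 (281.9 CPM), in the Hamp2 share of hepcidin counts (35.49%), in Hfe (119.8 CPM) and in Ftl1 (3238 CPM). KO 4 stood above the other KO livers in Smad6 (12.01 CPM). Among the controls, MCS 2 stood apart in Alas1 (986 CPM), and MCS 3 in Slc11a1 (12.57 CPM) and Saa1 (1706 CPM). KO 1 was also the library with the fewest counts (14998426), and what set it apart was not tested.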

How the results depend on the processing

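Trf, Hfe and Tfr2 kept direction and call against all controls under all 20 alternatives. Of 63 list and marker genes followed, 48 kept their call throughout and none turned. Library size scaling without TMM moved the median of all genes by 0.175 (log2) and called 5 of the 10 genes. Between WT Cre and MCS, 1 passed with a replicate block and 2 with only those groups in the fit; leaving out single livers gave 0 to 1. Replicate numbers did not pair the livers (3 of 9 correlations over 0.1, -0.122 to 0.203). Leaving out single livers gave 1 to 5 genes against WT Cre (1 without WT Cre 1, 5 without KO 1) and 3 to 5 against MCS (3 without MCS 1, MCS 2 or KO 3), and 5 against WT Cre without KO 1 and MCS 3. The Hamp2 share difference did not pass with WT Cre only (9.21 points, exact p = 0.4), MCS only (8.86, exact p = 0.429) or FPKM (8.21, exact p = 0.0619), and single livers gave 1.86 to 12.2. The Ftl1 share did not pass with WT Cre only (-5.85, exact p = 0.114) or MCS only (-7.48, exact p = 0.0571). The causes were not tested.

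The log2 fold changes that turned were not called. Slc40a1 against all controls was 0.0406 by library size and 0.0598 and 0.0623 in the FPKM settings. Against MCS it was 0.0165 with RLE, 0.0164 with DESeq2, 0.231 by library size, 0.0124 with voom, 0.00566 with filterByExpr, 0.00602 without a filter and -0.177 to 0.0879 without single livers. Against WT Cre, Tfrc was 0.0623 by library size, 0.167 with the block and -0.22 to 0.145 without single livers; Ftl1 was 0.0673 by library size and -0.262 to 0.0643 without single livers, passing without KO 1 (adjusted p = 0.047); Hamp was -0.14 to 0.166, and -0.00729 without KO 1 and MCS 3. Trf between WT Cre and MCS was 0.000225 by library size. Without single livers, Ftl1 was -0.171 to 0.162 against all controls and -0.0733 to 0.267 against MCS, and Hamp2 -0.256 to 1.74 against MCS, the lowest of each without KO 1. Without KO 1 and MCS 3 they were -0.173, -0.0286 and -0.553.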
